A study of Homo sapiens with 10 samples.

Results

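The heat shock proteins of the cytosol and of mitochondria were followed in BJ cells, human skin fibroblasts immortalised with telomerase (hTERT). The 10 genes were taken by symbol, as the rows for HSPA8, HSPA4, HSPH1, DNAJB1, HSP90AA1, HSP90AB1, HSPB1, HSPA9, HSPD1 and HSPE1 in both deposited tables. These are 10 of the 11258 transcripts found in both, and all 10 were among the 7015 tested genes, those with at least 5 FPKM (fragments scaled to transcript length and library size) in at least 1 library of each assay. Cells were an untreated control or had nutlin-3a, which blocks MDM2 from binding p53 and so activates p53, for 2, 4, 6 or 19 h. Each of the 5 conditions had 1 RNA-Seq library of poly(A) RNA and 1 Ribo-Seq library of ribosome-protected fragments, so no condition was replicated and no test between conditions was made. All libraries came from this single line, and the dose of nutlin-3a is not given in the labels.

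Heat shock proteins are molecular chaperones that hold or fold other proteins and that many cells make in large amounts without any stress. HSP70 proteins grip unfolded stretches of a client and release them as ATP is hydrolysed and replaced, J proteins deliver the client and start hydrolysis, and HSP110 proteins exchange the nucleotide. HSP90 proteins finish the folding of kinases, receptors and other signalling proteins, small heat shock proteins hold unfolded chains without ATP, and in mitochondria the chaperonin HSPD1 with its lid HSPE1 encloses proteins after import. Heat shock factor 1 (HSF1) turns on many of these genes through heat shock elements, repeats of the unit GAA and its complement TTC.

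Depth, worked out from the steps between FPKM values, was 23845558 to 27554289 reads per RNA-Seq library and 7744899 to 14460725 reads per Ribo-Seq library, with the fewest in the 19 h Ribo-Seq library. The members held 400 to 55760 reads each, so that counting error was small beside most differences, but it says nothing of the spread between cultures. In Ribo-Seq, ZNF354B and TMC5 together took 14.7% of the reads of the control and 4.56% of those at 4 h, which alone moved every other density value of the treated libraries up by 0.04 to 0.16 on the log2 scale. Of 8 fibroblast markers all were tested, with COL1A1 at 1642 FPKM in the RNA-Seq control, and of 6 markers of epithelial, blood or endothelial cells 4 were in neither table and CDH1 and PTPRC were at most 0.25 FPKM. Fewer cells of a kind and less RNA per cell cannot be told apart in such bulk libraries.

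Stretches of promoter with 3-unit heat shock elements are shown because they mark which members carry the letters of HSF1 sites. The motifs searched on both strands, from 250 bases before to 50 bases after each RefSeq start, were the 2-unit GAANNTTC and TTCNNGAA, and 3-unit motifs that add NNGAA to the first or NNTTC to the second. The 3-unit motifs are each other's reverse complement, and each contains both 2-unit motifs. All 10 members matched a promoter window by symbol, with 16 windows in all, and 4 members had a 3-unit element. In all RefSeq windows (GRCh38.p14) 0.490% held one, or 0.608% of genes. Capitals mark the elements, and overlapping elements run together.
HSPD1, chr2:197500056-197500090, minus strand: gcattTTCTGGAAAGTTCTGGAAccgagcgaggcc
HSP90AB1, chr6:44247766-44247855, plus strand: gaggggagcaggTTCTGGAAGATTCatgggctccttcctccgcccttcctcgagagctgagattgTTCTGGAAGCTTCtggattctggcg
HSPA8, chr11:123062342-123062378, minus strand: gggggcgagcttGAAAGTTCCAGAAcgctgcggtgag
HSPA8, chr11:123062167-123062203, minus strand: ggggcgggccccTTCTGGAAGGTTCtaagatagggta
HSP90AA1, chr14:102087108-102087144, minus strand: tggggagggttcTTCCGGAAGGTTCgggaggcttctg

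The HSPD1 stretch begins 250 bases before the start farther from HSPE1, lies beyond the other HSPD1 start in the direction of transcription, and holds 2 overlapping 3-unit elements, the HSP90AB1 stretch holds 2 apart from each other, and the HSPA8 stretches begin 242 and 67 bases before the start. In HSP90AA1 the element lies 88 bases before the start. HSPA9, HSPB1 and DNAJB1 had 2-unit motifs only, and either 2-unit motif was in 13.5% of all windows. HSPD1 and HSPE1 lie head to head on chromosome 2: one HSPD1 window and the HSPE1 window share 204 bases on opposite strands, with 105 bases between the starts. No 3-unit element lay in those shared bases. A match describes letters only, and these windows were placed by symbol on a later genome build than the hg19 of the deposited tables.

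In the control the members spanned 56.6 to 832 FPKM in RNA, from HSPH1 to HSPA8, which placed them between 39 and 1194 in order of abundance among the tested genes. In Ribo-Seq they spanned 24.8 to 1134 FPKM, from HSPH1 to HSPB1. RNA levels per length were set side by side between genes on this scale. They also depend on the unique hits and the 1 isoform kept per gene, and how far was not tested. Ribo-Seq values were divided by the same full transcript lengths although ribosomes lie mostly on coding sequence. An order of genes by Ribo-Seq level or by its ratio to RNA thus also depends on the untranslated share of each transcript. Reads outside coding sequence may also count in these values. The authors report a coding share of Ribo-Seq reads that differed between the control and later treated libraries. They also report reads less concentrated in a single reading frame in these libraries than in their others. How far this entered the changes in Ribo-Seq level and in its ratio to RNA over time was not tested. The span between the lowest and the highest member was 14.7-fold in the RNA-Seq control and 14.3-fold at 19 h, but in Ribo-Seq it widened from 45.6-fold to 92.3-fold. Summed over members, RNA-Seq reads were 0.674% of the control library and 0.509% of the 19 h library. The summed share of Ribo-Seq reads went from 0.638% through 0.696% at 2 h to 0.475% at 19 h. HSPB1 moved against that sum, from 0.103% to 0.170% of Ribo-Seq reads, while the mitochondrial HSPA9, HSPD1 and HSPE1 went from 0.0795% to 0.0356%.

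**Figure D1:**
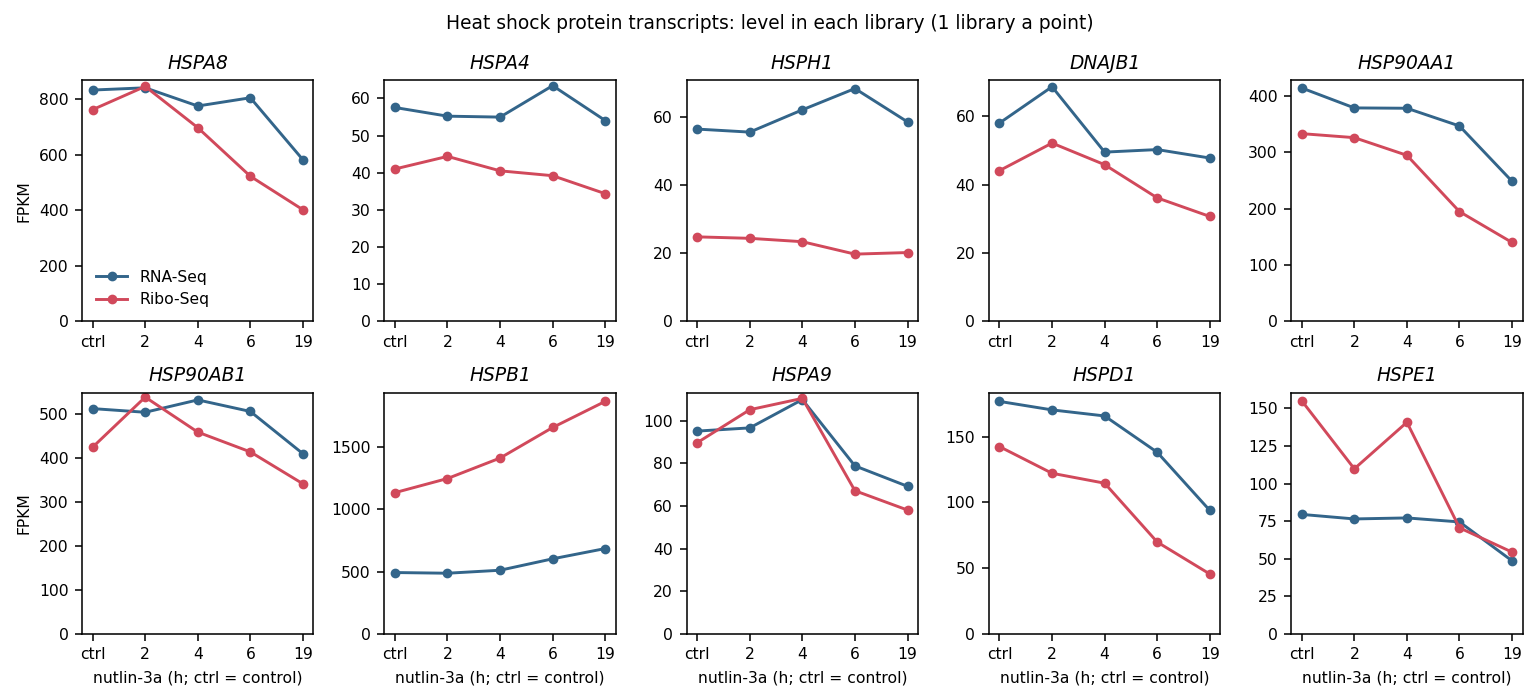
FPKM of each heat shock protein gene (vertical axis, from 0, scaled per gene) in the control and after 2, 4, 6 and 19 h of nutlin-3a (horizontal axis), with RNA-Seq in blue and Ribo-Seq in red and 1 library a point. HSPB1 climbs in both assays, from 492 to 685 FPKM in RNA and from 1134 to 1867 FPKM in Ribo-Seq, whereas HSPD1 goes from 143 to 45.5 FPKM in Ribo-Seq.

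Changes are log2 ratios to the control library, with values under 1 FPKM set to 1. Ribosome density means the Ribo-Seq FPKM, and dividing it by the RNA-Seq FPKM gives the translational efficiency (TE). A gene was called by a sliding cut-off, set in SDs from the mean change of the 300 or so tested genes nearest in level (local SDs and local mean). HSPD1 shows where it lies: its density change was not called at 6 h, at −1.67 local SDs from the local mean, and was called at 19 h, at −1.76. By this measure most members stayed inside the spread of genes of like abundance. In RNA at 2 h no member was called, beside 4.29% of tested genes in either direction. The same held at 4 h (6.23%) and 6 h (6.20%), and in the 19 h library HSPD1 alone was called lower, beside 3.98% of tested genes. For density no member passed at 2 h (6.10%) or 4 h (6.39%). HSPE1 was called lower in density at 6 h (3.98% of tested genes were called lower), and HSPD1 in the 19 h library (3.65%). The single TE call was HSPE1, lower at 6 h, where 3.14% of tested genes were called lower. No TE call fell on a member at 2 h (6.94%), 4 h (7.84%) or 19 h (7.40%). A single gene of 10 cannot be told apart from these background shares.

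The members as a list leaned lower late in treatment. Their median change in RNA was −0.02, −0.05, −0.07 and −0.39 at 2, 4, 6 and 19 h, beside −0.05, −0.07, −0.00 and −0.07 over all tested genes. At 19 h 8 of the 10 were below the control in RNA, as were 57.2% of tested genes. Their median density change was 0.13, −0.05, −0.37 and −0.57, beside 0.02, 0.10, −0.02 and −0.19, and 9 of 10 were below the control at both 6 and 19 h (51.5% and 60.1% of tested genes). The median TE change was 0.12, 0.01, −0.35 and −0.30, beside 0.04, 0.18, 0.00 and −0.07. The median step between 4 and 6 h was −0.38 in density and −0.01 in RNA, beside −0.17 and 0.05 over all tested genes. That between 6 and 19 h was −0.26 in density and −0.27 in RNA, beside −0.15 and −0.10. All these comparisons share the control library, and those of neighbouring times share libraries too.

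**Figure D2:**
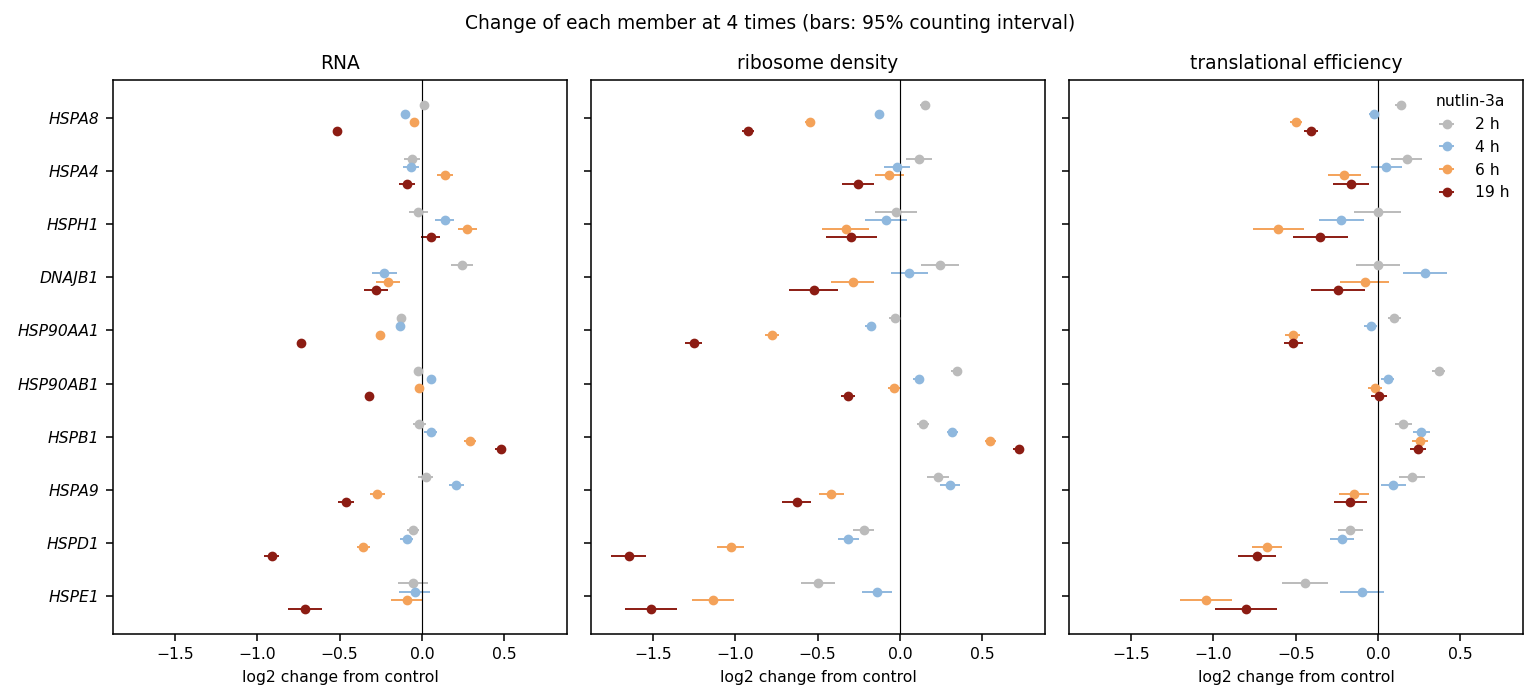
Log2 change from the control (horizontal axis) of each member at 2, 4, 6 and 19 h in RNA, ribosome density and TE, with bars for the 95% counting interval, which covers read sampling and not the spread between cultures. The 19 h values run from −0.91 (HSPD1) to 0.48 (HSPB1) in RNA and from −1.65 to 0.72 in density for the same genes.

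With a fixed cut-off of 1.5-fold more members passed, and so did more of all genes. No member passed it in RNA at 2 h (2.30% of tested genes did, in either direction), 4 h (7.08%) or 6 h (17.3%), in density at 2 h (9.68%) or 4 h (13.7%), or in TE at 2 h (7.17%) or 4 h (9.95%). At 19 h HSPD1, HSP90AA1 and HSPE1 were lower in RNA by at least this much (14.6% of tested genes). In density, HSPE1, HSPD1 and HSP90AA1 passed at 6 h (19.0%), and at 19 h HSPA8 and HSPA9 joined them on the lower side (29.8%), with HSPB1 on the higher side (15.0%). In TE, HSPE1, HSPD1 and HSPH1 passed at 6 h on the lower side (12.3%) and HSPE1 and HSPD1 at 19 h (15.6%).

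HSPD1 (ENSG00000144381), the barrel of the mitochondrial chaperonin, had the largest decrease of the members at 19 h in RNA and in density. Its RNA was 177, 171, 166, 138 and 94.0 FPKM in the control and at 2, 4, 6 and 19 h. Its density was 143, 122, 115, 69.9 and 45.5 FPKM. Each treated library was below the control in both assays, and the order of the times was the same in both. At 19 h the change was −0.91 ± 0.02 in RNA, −1.65 ± 0.05 in density and −0.73 ± 0.06 in TE (counting SE), or 1.88-fold and 3.13-fold lower in RNA and density. That density change was just past the sliding cut-off.

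HSPE1 (ENSG00000115541), the lid of that chaperonin, had nearly level RNA until 6 h. Its RNA was 79.5, 76.4, 77.1, 74.5 and 48.6 FPKM. Its density was 155, 109.8, 141, 70.5 and 54.4 FPKM. Density was thus lower at 2 h than at 4 h, and lowest at 19 h, when HSPE1 held 400 reads. In the 6 h library density was 2.20-fold lower with a change of −0.09 ± 0.05 in RNA, which gave a TE change of −1.04 ± 0.08, at percentile 2.28 of tested genes. Against the 2 h library, in which HSPE1 density was already lower, these 6 h changes were −0.64 in density and −0.60 in TE and neither was called. The ratio of Ribo-Seq to RNA-Seq FPKM went from 1.95 in the control to 0.95 at 6 h and 1.12 at 19 h, while the median of tested genes was 0.83 in the control and 0.79 at 19 h.

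HSPA9 (ENSG00000113013), the HSP70 of mitochondria that pulls in imported proteins, was above the control before it was below it. Its RNA was 95.1, 96.6, 109.9, 78.8 and 69.2 FPKM, and its density 89.6, 105, 110.4, 67.1 and 58.0 FPKM. The highest value of both assays was at 4 h and the lowest at 19 h. Its step from 4 to 6 h was −0.48 ± 0.02 in RNA and −0.72 ± 0.04 in density, both larger than its step from 6 to 19 h (−0.19 ± 0.03 and −0.21 ± 0.05). Its TE at 19 h differed from the control by −0.17 ± 0.05, less than that of HSPD1 or HSPE1.

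The ratio within the chaperonin pair was followed over time. HSPD1 over HSPE1 was 2.23 in RNA in the control (95% counting interval 2.12 to 2.34), and 2.23, 2.15, 1.86 and 1.93 at 2, 4, 6 and 19 h. In Ribo-Seq it was 0.92 in the control (0.87 to 0.97), then 1.11, 0.81, 0.99 and 0.84. The genes that share a promoter region thus differed in RNA level per length. The Ribo-Seq ratio, per full transcript, had no steady trend over time, and its size per coding length was not computed here.

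HSP90AA1 (ENSG00000080824), the inducible HSP90 of the cytosol, was the lowest member after the chaperonin pair in density change at 19 h. Its RNA was 414, 379, 378, 347 and 248 FPKM. Its density was 333, 326, 295, 195 and 139.9 FPKM. Every treated value was below the control, and the 19 h library was lowest in both assays, by 1.67-fold in RNA and 2.38-fold in density. None of its changes passed the sliding cut-off: at 19 h they lay −1.53 local SDs from the local mean in RNA and −1.13 in density.

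HSP90AB1 (ENSG00000096384), the constitutive HSP90, changed less. Its RNA was 512, 504, 532, 506 and 409.8 FPKM. Its density was 425, 539, 459, 414 and 341 FPKM, highest at 2 h. At 19 h both assays were lower by the same size, −0.32 ± 0.01 in RNA and −0.32 ± 0.02 in density, and the TE change was 0.01 ± 0.02. The density change was −0.66 against the 2 h library and −0.12 with the median of tested genes subtracted. HSP90AA1 over HSP90AB1 therefore declined from 0.81 to 0.61 in RNA, with each later library below the one before. In Ribo-Seq this ratio was 0.78 in the control and 0.61, 0.64, 0.47 and 0.41 (0.39 to 0.43) in the treated libraries in order of time. Being a ratio within a library it does not depend on how the library was scaled.

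**Figure D3:**
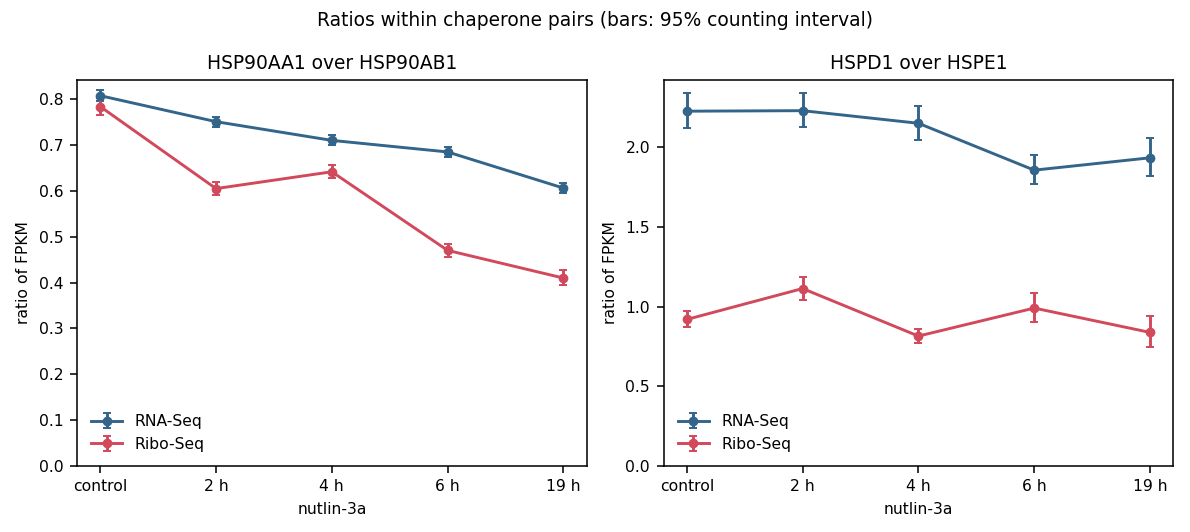
Ratio of FPKM (vertical axis, from 0) of HSP90AA1 to HSP90AB1 and of HSPD1 to HSPE1 in the control and after 2, 4, 6 and 19 h of nutlin-3a, with RNA-Seq in blue, Ribo-Seq in red and bars for the 95% counting interval. The HSP90 ratio goes down in both assays, to 0.61 in RNA and 0.41 in Ribo-Seq, while the HSPD1 to HSPE1 ratio is 1.86 to 2.23 in RNA and 0.81 to 1.11 in Ribo-Seq.

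HSPA8 (ENSG00000109971), the constitutive HSP70 of the cytosol, was the most abundant member in RNA up to 6 h. Its RNA was 832, 840.1, 775, 804 and 581 FPKM. Its density was 762, 845, 697, 522 and 401 FPKM. RNA was near the control until 6 h, whereas density was already 1.46-fold lower at 6 h and was 1.90-fold lower at 19 h. TE differed from the control by −0.50 ± 0.02 at 6 h, percentile 16.2 of tested genes, and by −0.41 ± 0.02 at 19 h. Many processed pseudogenes of HSPA8, HSPD1 and HSPE1 are known, the authors' alignment reference held protein-coding transcripts and rRNA, and the part of pseudogene reads in these values was not tested.

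DNAJB1 (ENSG00000132002), the J protein that works with cytosolic HSP70, had its highest value at 2 h in both assays. Its RNA was 58.0, 68.7, 49.5, 50.3 and 47.8 FPKM, and its density 44.1, 52.2, 45.9, 36.1 and 30.7 FPKM. At 2 h the change was 0.24 ± 0.03 in RNA, percentile 93.8 of tested genes, and 0.24 ± 0.06 in density. The step from 2 to 4 h was −0.47 ± 0.04 in RNA and −0.19 ± 0.05 in density. Both lay below the control at 6 and 19 h.

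The HSP110 proteins HSPH1 (ENSG00000120694) and HSPA4 (ENSG00000170606), which exchange the nucleotide of HSP70, stayed nearest to the control in RNA at 19 h. HSPH1 RNA was 56.6, 55.7, 62.2, 68.5 and 58.7 FPKM, and HSPA4 RNA was 57.6, 55.2, 55.0, 63.4 and 54.0 FPKM. Both were highest at 6 h. HSPH1 density was 24.8, 24.4, 23.4, 19.8 and 20.2 FPKM, per full transcript the lowest of the members in every Ribo-Seq library. HSPA4 density was 41.0, 44.4, 40.5, 39.2 and 34.4 FPKM. At 6 h HSPH1 thus had its highest RNA and, within counting error of the 19 h value, its lowest density, with a TE change of −0.61 ± 0.08. The ratio of HSPH1 to HSPA4 density, per full transcript and thus affected by their untranslated shares, was 0.61 in the control and 0.50 to 0.59 in the treated libraries.

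HSPB1 (ENSG00000106211), a small heat shock protein, was the exception. Its RNA was 492, 487, 511, 603 and 685 FPKM, and its density 1134, 1248, 1412, 1658 and 1867 FPKM. All treated Ribo-Seq libraries lay above the control, each above the one before, and at 19 h the change was 0.48 ± 0.02 in RNA, 0.72 ± 0.02 in density and 0.24 ± 0.03 in TE. It passed HSPA8 to become the most abundant member in RNA at 19 h and was, per full transcript, the most abundant in every Ribo-Seq library, where its place among the tested genes went from 47 to 16. Its Ribo-Seq to RNA-Seq ratio was 2.30 in the control and 2.56 to 2.76 in treated libraries. On the scale of full transcripts this was the highest of the members throughout, an order that was not checked per coding length. The sliding cut-off did not call it at any time, since at 19 h it lay 1.07 local SDs above the local mean in density.

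**Figure D4:**
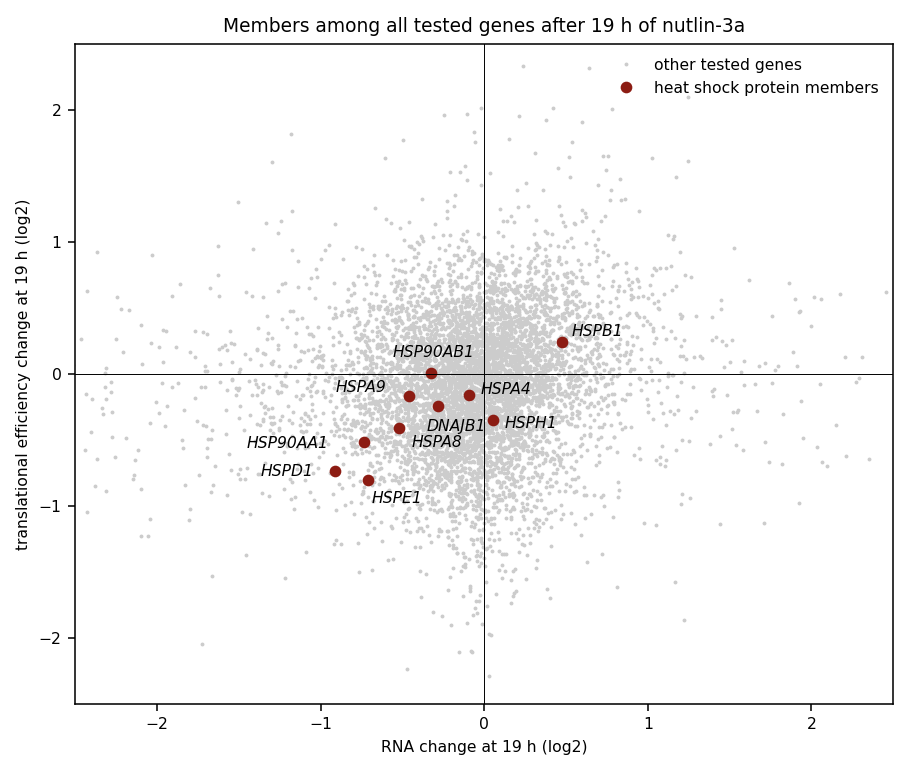
Change in RNA (horizontal axis) and in TE (vertical axis) at 19 h of nutlin-3a, both log2 against the control, for the 10 members (red, named) and the other tested genes (grey), with 209 genes beyond the axes at 2.5. HSPD1 (−0.91 in RNA, −0.73 in TE), HSPE1 and HSP90AA1 lie lowest on both axes among the members, and HSPB1 alone is above 0 on both beyond its counting error.

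In 7 of the 10 members RNA and TE were both below the control at 19 h, as they were in 34.4% of tested genes. HSPH1 was lower in TE only, HSP90AB1 in RNA only, and HSPB1 in neither. Of 3665 other tested genes whose profile over the 8 RNA and density changes had an SD of at least 0.3, those most like the members' median profile were EXOSC10 (Pearson r 0.98), MIOS (0.98), HNRNPA2B1 (0.97), STAG1 (0.97) and CHEK1 (0.97). The points share the control library, and 274 genes had r above 0.9, so such a profile was common. Among the members HSPA8 and HSP90AA1 followed the median most closely (0.99 and 0.98) and HSPB1 ran against it (−0.89). Each member helped to set that median, so these r values only describe its place in the list.

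The wider chaperone network gave context from lists of other genes. HSF1 itself was at 33.5 FPKM in RNA in the control and 34.6 FPKM at 19 h. The stress-induced HSPA1A was at 8.43 and 7.80 FPKM in RNA and at 7.88 and 12.1 FPKM in Ribo-Seq, but it is nearly identical to HSPA1B, so reads kept for a unique hit cover little of either. HSPA6, another stress-induced HSP70, stayed under 1 FPKM in all libraries of both assays.

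All 8 subunits of CCT, the cytosolic chaperonin related to HSPD1, were below the control in both assays at 19 h. Their medians were −0.56 in RNA and −0.97 in density, and 57.2% and 60.1% of tested genes were below the control. CCT5 (−1.13 in RNA) was the 1 called by the sliding cut-off. At 19 h that cut-off called 3.98% of tested genes lower in RNA, 3.65% lower in density and 7.40% in either direction in TE. All 6 subunits of prefoldin, which brings actin and tubulin to CCT, were lower in density, by a median of −0.88, and PFDN4 was called lower in TE (−0.94). Of 12 tested HSP90 co-chaperones 9 were lower in RNA (median −0.42), with CACYBP called (−1.30) and FKBP5 lower by −2.43 but not called. STIP1, which bridges HSP70 and HSP90, was at −0.70 in RNA and −0.88 in density, and was not called.

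Other J proteins had a median of −0.13 in RNA and −0.46 in density over 14 tested genes. Of these DNAJC9, a histone chaperone, was called lower in RNA (−2.04), density and TE, beside the 19 h shares given with CCT. Of the 13 other mitochondrial chaperones and proteases none was called at 19 h, with medians of −0.18 in RNA and −0.23 in density, and TRAP1, the mitochondrial HSP90, was at −0.69 in RNA. The HSP70 partners had medians of −0.11 and −0.25, with no call among 10. Among 6 tested other HSP70 and HSP110 proteins, with HSPA1A and HSPA1B among them, the median change was −0.21 in RNA and 0.49 in density. HSPA4L, an HSP110 protein, was called higher in RNA at 6 h, as were 1.81% of tested genes. Its RNA was 2.46, 2.15, 7.09, 16.7 and 12.5 FPKM, and its density 1.69, 1.80, 4.57, 6.71 and 5.5 FPKM. It reached 5 FPKM in Ribo-Seq only at 6 and 19 h, so it was tested only through libraries in which it was high. HSPA14, found at ribosomes, was called lower in density at 19 h (−1.98), as were 3.65% of tested genes. Of 4 tested genes besides HSPB1 that were listed by symbol with the small heat shock proteins, HSPB8 was at 0.83 in RNA and 1.09 in density without a call. HSPB11, which is in this list by its symbol only, was called lower in density (−2.03), as were 3.65% of tested genes.

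The chaperones of the endoplasmic reticulum lay on the other side of the control. Of 15 genes 13 were above it in each assay at 19 h. Of all tested genes 57.2% were below it in RNA and 60.1% in density. The medians of the 15 were 0.32 in RNA and 0.62 in density, beside −0.07 and −0.19 over tested genes, with no call in either. HYOU1, an HSP110 relative, was called higher in TE (0.88), as were 3.51% of tested genes. HSPA5, the HSP70 of that compartment, was at 0.34 in RNA and 0.89 in density, and DNAJB9 at 1.03 in RNA. At 6 h all 15 were above the control in both assays, with medians of 0.62 in RNA and 0.64 in density, while 50.3% and 51.5% of tested genes were below it. In RNA at 6 h HSPA5 (1.27) and SDF2L1 (0.86) were called higher (1.81% of tested genes), and in density at that time HSPA5 (1.61) and HYOU1 (1.51) were (2.99%). HSPA5 was also called higher in density at 2 h (0.65), as were 4.12% of tested genes. Its density was 193, 302, 210, 589 and 358 FPKM, thus near the control again at 4 h. HSPA5 RNA was 224 FPKM in the control and 229 FPKM at 2 h. The 8 fibroblast markers likewise had a median density change of 0.72 at 2 h, with 5 called higher, and of 0.11 at 4 h. What the 2 h library shares across such genes was not tested. The lists of endoplasmic reticulum chaperones and of the members were described by these counts and medians only, and no test of the difference between them was made.

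**Figure D5:**
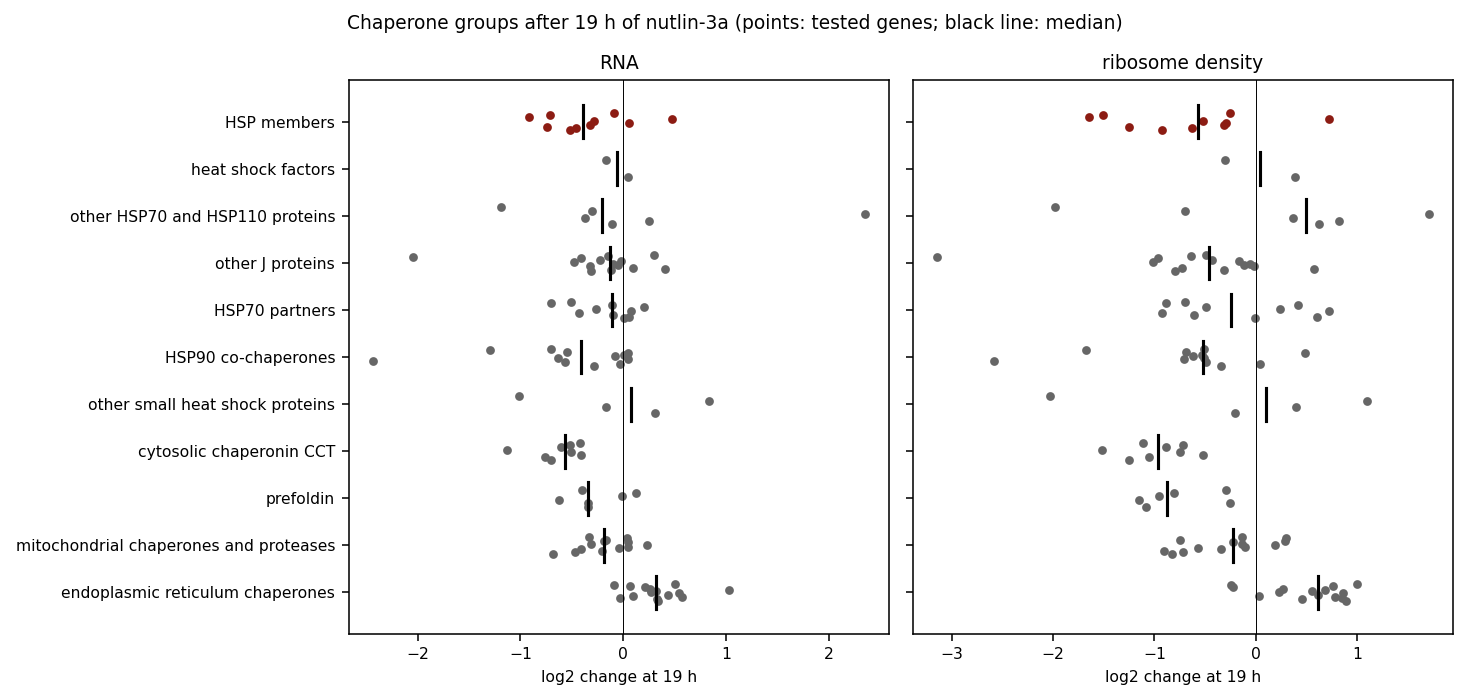
Log2 change at 19 h of nutlin-3a (horizontal axis) in RNA and ribosome density for the tested genes of each chaperone group (points, with a black line at the median and the 10 members in red). The CCT subunits all lie below 0 (medians −0.56 and −0.97) and the chaperones of the endoplasmic reticulum mostly above it (0.32 and 0.62).

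Transcript length moved with density and is given beside these results. Per doubling of length the density change over tested genes was higher by 0.15, 0.12 and 0.17 in the 2, 6 and 19 h libraries. In the 4 h library this slope was −0.001, so the density steps from 2 to 4 h and from 4 to 6 h join libraries with unlike slopes. The members' transcripts were 909 nt (HSPB1) to 4825 nt (HSPA4) long, with HSPE1 at 950 nt and HSPD1 at 2455 nt. HSPB1 and HSPE1, the shortest, lay at opposite ends of the members in density at 6 h. With the length trend removed, HSPE1 was called at 6 h neither in TE (−0.79) nor in density (−0.97), and HSPD1 was called in density in its place. How far length contributed to the HSPE1 values was not tested further.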

How the data were processed

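RNA-Seq and Ribo-Seq were compared in 10 libraries, 1 per condition and assay, grouped by the GEO labels. The values the authors deposited are FPKM, made by aligning reads with Bowtie to rRNA and protein-coding transcripts (1 isoform per gene, hg19, Ensembl release 65) and keeping unique hits. Both tables use the same column names. The assay was taken from each table's name, and the table named for both assays, with 1 column per time, was read as RNA-Seq. The methods describe Ribo-Seq values from coding sequence, yet all 10 members had the same recovered length in both tables, so Ribo-Seq values and TE are per full transcript.

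Whole reads, lengths and library totals were recovered from the spacing of FPKM values given to 3 decimals, a step tested on simulated data, and gave counting errors, as 95% intervals of ratios. These cover read sampling only. Log2 ratios to the control used a floor of 1 FPKM, over the 7015 genes that reached 5 FPKM somewhere in both assays. Genes were called by their distance, in local SDs, from the mean change of the 300 or so genes of like level, with 1.5-fold as an alternative. No p-value was computed. All 10 members are named. Of each other list, at most 3 genes with the largest RNA change and 3 with the largest TE change at 19 h could be named, besides HSF1, the stress-induced genes and the markers whose levels are given, and the 5 genes most like the members' profile. The members and lists were chosen with earlier results of these data known. Python 3.11.15, numpy 2.4.6 and pandas 2.3.3 were used. Promoter letters came from RefSeq.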

Additional observations from a re-analysis of the deposited data

Results flagged for a closer look

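Some members were on opposite sides of the control at different times, each beyond its counting interval and by at least 0.2 on the log2 scale. With 1 library per time the difference between times was not tested. HSPA9 RNA was at 0.21 at 4 h against −0.27 at 6 h and −0.46 at 19 h. Its density was at 0.23 and 0.30 at 2 and 4 h against −0.42 and −0.63 at 6 and 19 h. DNAJB1 RNA was at 0.24 at 2 h and at −0.23, −0.21 and −0.28 at 4, 6 and 19 h. DNAJB1 density was at 0.24 at 2 h and at −0.29 and −0.52 at 6 and 19 h, and its TE at 0.28 at 4 h and −0.24 at 19 h. HSP90AB1 density was at 0.34 at 2 h and −0.32 at 19 h. With Ribo-Seq rescaled without ZNF354B and TMC5 the HSPA9 density change at 4 h was 0.14 and that of HSP90AB1 at 2 h was 0.21, and with the median of tested genes subtracted that of DNAJB1 at 19 h was −0.33 and that of HSP90AB1 −0.12.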

How the results depend on the processing

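No paired analysis was possible because each condition had 1 library and the labels carry no replicate numbers, and for the same reason no library could be left out of a group. Of 120 member changes 18 changed sign under any alternative, none of them larger than 0.14 in size. With the median of tested genes subtracted, the members' median RNA change was 0.022 at 2 h, 0.019 at 4 h and −0.32 at 19 h, that in density −0.15 at 4 h and −0.38 at 19 h, and that in TE −0.17 at 4 h. With the 2 h library as baseline, the median was 0.0052 at 4 h and −0.50 at 19 h in RNA, −0.58 at 6 h and −0.81 at 19 h in density, and −0.12 at 4 h and −0.44 at 6 h in TE. With Ribo-Seq rescaled without ZNF354B and TMC5, it was −0.0056, −0.21 and −0.50 in density and −0.015, −0.15 and −0.48 in TE at 2, 4 and 6 h.

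The call of HSPD1 in RNA at 19 h was made under each alternative. Its call in density at 19 h was lost (0 members called) with a pseudocount of 1 FPKM, with no filter and with genes averaging 20 FPKM or more in each assay. The calls of HSPE1 at 6 h in density and TE were lost (0 called) with no filter and with the 2 h baseline. That in TE was also lost with the length trend removed (0 called), and in density HSPD1 was then called instead. With the cut-off of 1.5-fold 3 members were called in RNA at 19 h, 3 and 6 in density at 6 and 19 h, and 3 and 2 in TE at 6 and 19 h. The cause of these shifts was not tested. A floor of 5 FPKM and a wider window of genes changed no call. Depth limits the Ribo-Seq values at 19 h most, where HSPE1 held 400 reads.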
